A study of Mus musculus with 30 samples.

Results

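The S fraction of growing C2C12 cells was compared with the G1 fraction of the same line across all genes that reached 10 CPM (fragment counts scaled to the size of the library) in at least 1 of the 2 libraries. C2C12 cells are mouse myoblasts, the precursors of muscle, which keep dividing while serum is plentiful and fuse into fibres when it is not. The cells were kept in 20% fetal bovine serum, detached with trypsin, stained for 15 minutes with Hoechst 33342, a dye that binds DNA, and separated on a cell sorter by phase (G1, S or G2/M). The labels name no transgene, drug or synchronising treatment, so the fractions differ by the gate and, for the S columns, by a lot mark in their titles, which no other RNA-seq title has. Gate and lot cannot be told apart.

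The series holds 30 samples, of which 6 are RNA-seq. The 24 ChIP-seq samples were not analysed here. Of 46078 genes in the count table, 8773 met the limit of 10 CPM in S or G1. Each phase has 2 columns, numbered as replicates, and their counts differed by no more than sampling noise in G1 (chi-square over degrees of freedom 1.00) and by little more in S (1.03). In G2/M the value was 1.15, or 1.04 without the gene model Gm17082. The 2 columns of a phase are therefore called runs here and were summed and counted as 1 library, which held 35822319 fragments for S and 32395232 for G1. With 1 library per phase there was no replicate check and no test. Each interval of a ratio below is an exact 95% binomial interval that covers counting error only. A level is given in CPM after TMM scaling, and a ratio is the log2 of S over G1, so that a positive value is higher in S. In bulk RNA, fewer cells of a kind and less RNA per cell cannot be told apart.

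A growing cell passes from G1, when origins of replication are licensed, into S, when DNA is copied, and then into G2 and mitosis. In textbook accounts the genes for licensing, S-phase entry and DNA synthesis are switched on by E2F factors late in G1. The genes for the spindle, kinetochore and chromosome condensation are switched on later, through the B-MYB-MuvB complex and FOXM1 at a promoter element called CHR. Their transcripts are highest in G2 and mitosis. Most replication-dependent histone transcripts lack a poly(A) tail.

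The labels were first set against phase markers, and the DNA synthesis markers did not follow the name of the S library. All 12 markers of S-phase entry and DNA synthesis were lower in the library labelled S than in the library labelled G1, with summed levels of 2230 and 3642 CPM. Of 139 measured genes in 7 wider replication lists, 97 were below a ratio of 1 and 42 above. Of 8 markers of G2 and mitosis, 7 were higher in S, with summed levels of 1176 and 467 CPM. The exception was Cdc20, which activates the ligase that ends metaphase: its level was 89.9 CPM in S against 104.2 CPM in G1. Of 8 myoblast markers, 6 reached 10 CPM in both libraries, among them Myf5 and Des, while Myod1 was below it, at 6.08 CPM (S) and 6.64 CPM (G1). None of 7 markers of differentiated muscle reached 10 CPM in either library, with summed levels of 1.93 (S) and 9.23 CPM (G1). Of a wider list of 35 sarcomere genes 4 were measured, all below a ratio of 1 and 2 of them past 2-fold (17.2% of all genes). Those 2, Tnnc1 and Actn3, met the limit of 10 CPM through G1 alone. They were in the set through the library where they were high, so their share was not read. The 4 were Tnnt2 at 96.6 CPM (S) and 103.1 CPM (G1), Ldb3 at 17.9 and 28.0 CPM, Tnnc1 at 2.71 and 18.1 CPM, and Actn3 at 0 and 10.9 CPM. The part of such transcripts in other ratios was not tested. Markers of endothelial cells, leukocytes, adipocytes and neural cells summed to between 0 and 5.27 CPM, and all 4 epithelial markers were at 0 in both libraries. Of a wider list of 30 genes known from other cell types, 5 were measured: Krt14, Tubb3, Runx2, Sox9 and Pparg. Pparg, the regulator of fat cells, was at 45.04 and 42.1 CPM in the G1 runs and at 14.2 and 14.7 CPM in the S runs (log2 ratio -1.59).

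Across the 8773 genes, 757 (8.63%) had a level in S of 2-fold or more that in G1 and for 754 (8.59%) the reverse held, so 17.2% were past 2-fold in either direction. The median log2 ratio was -0.01. The share past 2-fold was 17.3% of 2572 genes with a mean from 20 to 50 CPM, 8.04% of 1941 genes from 50 to 100 CPM and 1.32% of 303 genes from 500 CPM. Genes with a mean under 10 CPM were in the set only where 1 library was high, so their share was not read. They make up 162 of the 757 genes higher in S and 177 of the 754 lower. Between the 2 runs of the S library log2 ratios had a robust SD of 0.09 from 20 to 50 CPM, against 0.74 between S and G1. Runs of 1 library hold no spread between cultures or sorts, which was not measured. The mean of the 2 libraries reached 50 CPM for 4225 genes, of which 129 (3.05%) were higher in S by 2-fold or more and 91 (2.15%) lower, or 5.21% in all. Of the 129 genes, 37 were members of 8 lists of mitosis genes and 0 of 7 lists of DNA replication genes. Of the 91 genes, 13 belonged to the replication lists and 1 to the mitosis lists, Mybl2. Those lists held 110 and 88 of the 4225 genes, respectively.

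**Figure D1:**
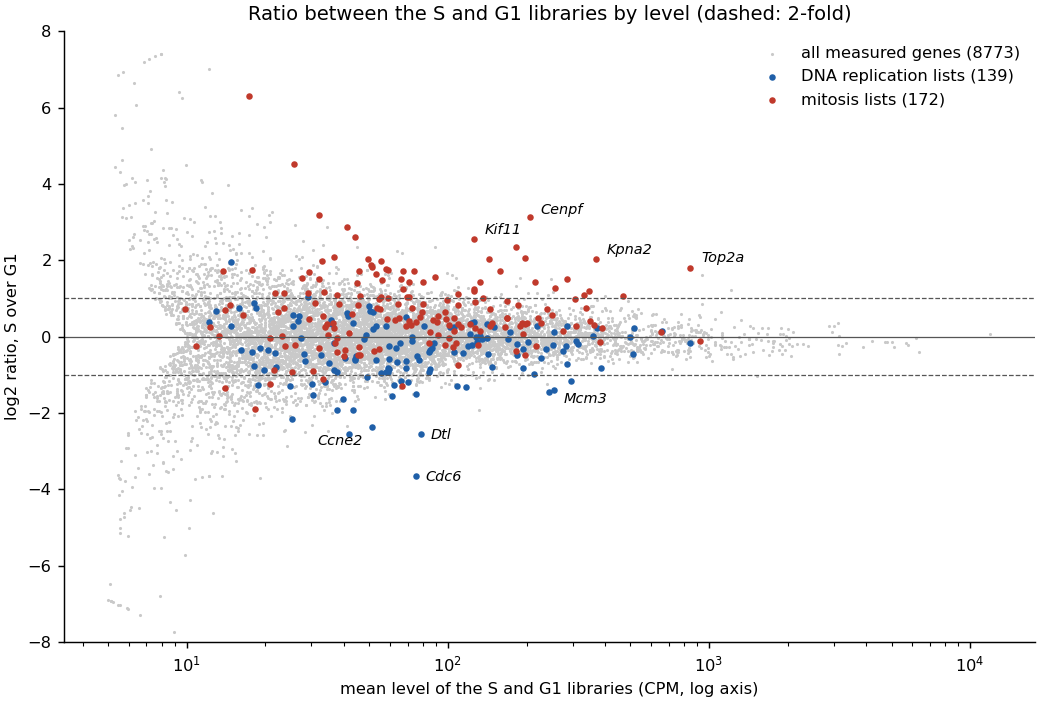
Each point is a gene, with the mean level of the S and G1 libraries (CPM, log axis) against the log2 ratio of S over G1. Members of the DNA replication lists are blue and those of the mitosis lists red, the dashed lines mark 2-fold, and the labelled genes run from Cdc6 (-3.64) to Cenpf (3.12).

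Of 16 genes for replication licensing, 10 were below a ratio of 1 and 6 above, and the lowest was Cdc6, which loads the MCM helicase at origins. Cdc6 (chr11:98907801-98923940, plus strand, GRCm38) stood at 138.9 and 141.7 CPM in the 2 runs of G1, at 10.3 and 12.1 CPM in those of S, and at 24.2 CPM in each run of G2/M. The S library was the lowest. Its log2 ratio was -3.64 (interval -3.80 to -3.50), a 12.5-fold lower level. Cdt1, its partner in loading, was at 60.2 and 59.4 CPM in G1 and 16.0 and 15.2 CPM in S (log2 ratio -1.94, interval -2.08 to -1.80).

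The 6 subunits of the MCM2-7 helicase were all lower in S, to unequal degrees. Mcm3 was at 372.6 and 369.4 CPM in the G1 runs and at 142.1 and 138.4 CPM in the S runs, with a log2 ratio of -1.40 (interval -1.45 to -1.36). It was the 1 subunit past 2-fold. The others had log2 ratios of -0.82 for Mcm4, -0.81 for Mcm7, -0.73 for Mcm6, -0.56 for Mcm5 and -0.34 for Mcm2. Of the 6 subunits of the origin recognition complex, Orc1 to Orc5 were on the other side, between 0.26 and 0.67, and Orc6 was at -0.65. Over the licensing list, 3 were at least 2-fold lower, against 8.59% of all genes, and 0 higher, with a median log2 ratio of -0.45.

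Regulators of S-phase entry held the lowest median of the replication lists, at -0.60 over 30 genes, of which 8 were at least 2-fold lower (8.59% of all genes) and 1 higher. Dtl, the substrate receptor that marks CDT1 for destruction, was at 135.9 and 134.2 CPM in the G1 runs and at 21.9 and 23.99 CPM in the S runs. Its log2 ratio was -2.56 (interval -2.67 to -2.45). The cyclins that drive S-phase entry, Ccne2 and Ccne1, had log2 ratios of -2.36 (interval -2.49 to -2.24) and -1.63 (interval -1.76 to -1.50). Ccne2 was at 85.4 and 85.8 CPM in G1 and 15.8 and 17.5 CPM in S, and its exons overlap another gene, whose fragments cannot be told apart from its own. Such overlap was found for 2667 of the 8773 measured genes, among them Mcm7, Ccnd1, Cdc45, Msh6, Fanca, Ccna2, Foxm1, Nusap1 and Gapdh. It is stated in the text for only some of them. Cdk2, the kinase partner of the E-type cyclins, was at 90.1 and 85.1 CPM in G1 and at 35.6 and 36.8 CPM in S (log2 ratio -1.28). The D-type cyclin Ccnd1 hardly differed, at 631 CPM in G1 and 693 CPM in S.

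The E2F factors split. The activators E2f1 and E2f2 were lower in S, with log2 ratios of -1.30 and -1.54, and E2f3 was at -0.61. E2f7 and E2f8, both repressors of E2F targets, were at -0.63 and 0.64, respectively. E2f5 was the 1 list member at least 2-fold higher in S, at 23.6 against 6.05 CPM (log2 ratio 1.96). Among the inhibitors of cyclin-dependent kinases, Cdkn1a (p21) was at 48.5 and 45.04 CPM in G1 and 21.5 and 19.7 CPM in S (log2 ratio -1.18), whereas Cdkn1b (p27) was at 0.32 and Cdkn2c (p18) at 0.80.

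Promoter sequences from this side are shown because they hold letters that E2F factors are known to bind. Of the 30 genes with a name of their own that had the lowest ratios among those whose mean reached 50 CPM, 25 had a promoter window in the RefSeq table of GRCm38.p6. The letters, TTTCCCGC, TTTGGCGC, TTTCGCGC or TTTGCCGC on either strand, lay in the windows of 7 of them: Cdc6, Dtl, Zfp367, Uhrf1, Mcm3, Msh6 and Cdk2. Of all 3369 windows of genes with a mean of 50 CPM or more, 5.85% held them. In 4 of the 7 genes, Cdc6, Dtl, Zfp367 and Cdk2, the letters lay in the 150 bases before a start site. The 150 bases before the RefSeq start sites of Dtl, of the zinc-finger gene Zfp367 and of Cdk2 read as follows, 5′ to 3′ along the gene's strand, with the E2F letters in capitals. 
Dtl, chr1:191575545-191575694, minus strand: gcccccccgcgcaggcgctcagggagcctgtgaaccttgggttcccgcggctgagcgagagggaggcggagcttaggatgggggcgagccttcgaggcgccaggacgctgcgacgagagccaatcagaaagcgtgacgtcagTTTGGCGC
Zfp367, chr13:64153200-64153349, minus strand: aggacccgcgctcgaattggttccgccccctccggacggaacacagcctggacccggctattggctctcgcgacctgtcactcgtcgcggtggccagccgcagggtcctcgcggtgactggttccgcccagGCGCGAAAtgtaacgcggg
Cdk2, chr10:128705052-128705201, minus strand: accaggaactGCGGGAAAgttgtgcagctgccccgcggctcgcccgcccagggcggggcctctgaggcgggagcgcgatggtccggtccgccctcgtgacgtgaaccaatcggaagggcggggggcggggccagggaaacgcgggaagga
The capitals begin 8 bases before the start site in Dtl, 19 in Zfp367 and 140 in Cdk2. Zfp367 was at 211.8 and 206.6 CPM in the G1 runs and at 53.4 and 56.0 CPM in the S runs, with a log2 ratio of -1.94 (interval -2.01 to -1.86). In Cdc6 the match, GCGGGAAA, lies 138 bases before the RefSeq start, inside the gene as the deposited table draws it. The last few bases shown for Zfp367 also lie within its gene as drawn there. A match describes the letters only, and binding was not tested.

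The machinery of the fork itself was lower in some parts and not in others. The clamp Pcna, which tethers polymerases to DNA, was at 407.3 and 407.8 CPM in the G1 runs and at 180.1 and 186.2 CPM in the S runs (log2 ratio -1.15, interval -1.20 to -1.11). The clamp loader subunit Rfc3 was at 39.9 and 43.2 CPM in G1 and 10.6 and 7.87 CPM in S (log2 ratio -2.17, interval -2.35 to -2.00), while Rfc5 was at -0.03 and Rfc4 at 0.88. Of the single-strand binding complex RPA, Rpa2 was lower (log2 ratio -1.55), Rpa1 was at -0.11 and Rpa3 at 0.74. Over the 18 genes for clamp, loader, RPA and lagging strand, 5 were at least 2-fold lower (8.59% of all genes) and 0 higher.

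Origin firing and fork genes had a median of -0.49, with 2 of 17 at least 2-fold lower, Wdhd1 (-1.33) and Cdc45 (-1.25), a share near the 8.59% of all genes. The replicative polymerases and primase were not a lower group: 6 of 11 were above a ratio of 1, with a median of 0.19. Pold3 (-1.07) was the 1 gene past 2-fold (17.2% of all genes). Nucleotide synthesis genes had a median of -0.18 over 29 genes. Of these Umps, for pyrimidine synthesis, was the 1 past 2-fold (-1.18), against 17.2% of all genes. Rrm2, the regulated subunit of ribonucleotide reductase, was at 902.2 and 898.5 CPM in G1 and at 792.0 and 795.0 CPM in S (log2 ratio -0.18), and Rrm1 was at 0.01.

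Genes that rebuild chromatin behind the fork had a median of -0.46 over 18 genes, with 4 at least 2-fold lower (8.59% of all genes) and 1 higher. Uhrf1, which brings the maintenance methyltransferase to newly copied DNA, was at 354.1 and 358.0 CPM in the G1 runs and at 130.1 and 131.0 CPM in the S runs (log2 ratio -1.45, interval -1.50 to -1.40). Cdca7 (-2.57), Tonsl (-1.94) and Wdr76 (-1.51) were lower too, whereas the methyltransferase Dnmt1 was at -0.08. The 2 copies of the histone chaperone ASF1 stood apart from this group, Asf1a at 1.03 and Asf1b at 0.53. Of 68 replication-dependent histone genes in the table, 1 reached 10 CPM, Hist1h1c, with 101.1 CPM in G1 and 71.7 CPM in S.

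Over the 7 replication lists together, 97 of 139 measured genes were below a ratio of 1 and 42 above. At least 2-fold lower were 24, against 8.59% of all genes, and 2 were at least 2-fold higher, E2f5 and Asf1a. The median log2 ratio was -0.34, and -0.33 once the median of genes of like exon length was taken off each gene.

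DNA repair genes did not move as a block. Of 31 genes for homologous recombination and Fanconi anemia, 24 were above a ratio of 1 and 7 were at least 2-fold higher in S (8.63% of all genes) and 2 lower. The higher genes included Xrcc2 (10.7 and 10.55 CPM in G1, 34.7 and 36.7 CPM in S) and Fanca (log2 ratio 1.61). Exo1, the resection nuclease, was lower, at 45.7 and 48.0 CPM in G1 and 15.2 and 13.4 CPM in S (log2 ratio -1.71). Most of these genes have low levels, where 2-fold ratios were common: only 3 of the 31 had a mean of 50 CPM or more. Of 17 genes for base excision and mismatch repair, 5 were at least 2-fold lower (8.59% of all genes), and 4 of the 17 had a mean of 50 CPM or more, with a median of 0.13. The lower genes included Ung, which removes uracil from DNA, at 69.6 and 67.9 CPM in G1 and 12.9 and 14.1 CPM in S (log2 ratio -2.35). Msh6, a mismatch recognition protein, was at -1.34. Within the checkpoint genes Chek1, the kinase that restrains mitotic entry, was at 87.6 and 87.7 CPM in G1 and 30.2 and 31.6 CPM in S (log2 ratio -1.50), while Wee1, the kinase that inhibits CDK1, was at 17.6 and 17.7 CPM in G1 and 48.7 and 49.2 CPM in S (1.47).

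The mitotic genes stood on the opposite side, and the largest ratio among named genes above a mean of 50 CPM was that of Cenpf, a large kinetochore protein made in G2. Cenpf (chr1:189640606-189688086, minus strand) was at 45.04 and 39.7 CPM in the G1 runs, at 371.4 and 367.4 CPM in the S runs and at 639.2 and 638.3 CPM in the G2/M runs. The S library thus lay between those of G1 and G2/M. The log2 ratio of S over G1 was 3.12 (interval 3.04 to 3.21), an 8.72-fold higher level.

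The mitotic kinesins, motors that build and slide the spindle, had the highest median of all lists, 1.25. All 15 were above a ratio of 1, and 8 were at least 2-fold higher (8.63% of all genes). Kif11, which pushes the spindle poles apart, was at 36.8 and 36.5 CPM in the G1 runs and at 214.5 and 216.8 CPM in the S runs, with a log2 ratio of 2.56 (interval 2.47 to 2.65). Cenpe, which carries chromosomes to the spindle equator, was at 58.5 and 61.2 CPM in G1 and at 303.8 and 302.5 CPM in S (log2 ratio 2.34). Kif20b and Kif18b had log2 ratios of 2.03 and 1.83, and Kif14 was at 2.88. The lowest were Kif22 (0.24) and Kif2a (0.28).

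Promoters of mitotic genes are shown because they hold the CHR letters, TTTGAA on either strand. Among the 30 named genes with the highest ratios above a mean of 50 CPM, 23 had a window and 13 of those held the letters. Of all 3369 windows of genes above that mean, 14.0% held them. In 4 of the 13, Kif11, Kpna2, Top2a and Tgif1, the letters lay in the 150 bases before a start site, and Tgif1 is not shown. The 150 bases before the start sites of Kif11, of Kpna2, a nuclear import receptor that also serves spindle assembly, and of Top2a, the topoisomerase that untangles chromosomes before they part, carry them in capitals, as TTCAAA on the strand shown, 5′ to 3′. 
Kif11, chr19:37376232-37376381, plus strand: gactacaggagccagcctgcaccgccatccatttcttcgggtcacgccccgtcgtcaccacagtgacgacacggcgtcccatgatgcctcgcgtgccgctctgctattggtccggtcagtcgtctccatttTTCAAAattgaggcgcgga
Kpna2, chr11:106999526-106999675, minus strand: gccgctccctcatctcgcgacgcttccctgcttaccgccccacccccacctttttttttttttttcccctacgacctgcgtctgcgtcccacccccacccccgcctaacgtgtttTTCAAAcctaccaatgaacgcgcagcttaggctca
Top2a, chr11:99024190-99024339, minus strand: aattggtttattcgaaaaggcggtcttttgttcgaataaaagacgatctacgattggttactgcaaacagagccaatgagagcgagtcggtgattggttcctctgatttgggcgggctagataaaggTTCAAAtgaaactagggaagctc
The capitals begin 19 bases before the start in Kif11, 35 in Kpna2 and 23 in Top2a, and the last bases shown for Kpna2 lie within the gene as the deposited table draws it. Kpna2 was at 140.8 and 149.0 CPM in the G1 runs and at 582.7 and 597.4 CPM in the S runs (log2 ratio 2.03, interval 1.98 to 2.07). Top2a was at 374.0 and 377.8 CPM in G1 and at 1316 and 1318 CPM in S (log2 ratio 1.81, interval 1.78 to 1.84), and its exons overlap another gene. Both were highest in G2/M, at 1098 CPM for Kpna2 and 1501 CPM for Top2a.

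**Figure D2:**
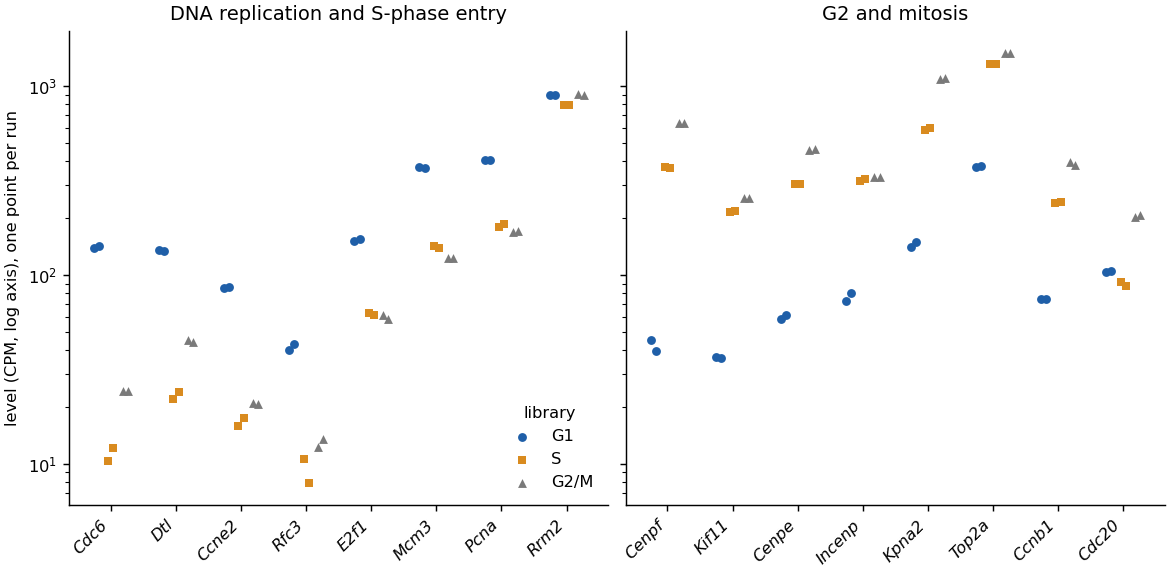
Levels of 16 genes in each run of the G1, S and G2/M libraries (CPM, log axis, 1 point per run). The 8 replication genes on the left are lower in S than in G1, most in Cdc6 and least in Rrm2. On the right all but Cdc20 are higher in S than in G1. The runs of a library are not replicates.

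Mitotic kinases, cyclins and their regulators had a median of 0.82 over 23 genes, with 8 at least 2-fold higher (8.63% of all genes) and 1 lower. Ccnb1, the mitotic cyclin, was at 74.3 CPM in each G1 run and at 241.6 and 243.2 CPM in the S runs (log2 ratio 1.71, interval 1.64 to 1.77). Its kinase Cdk1 was past 2-fold in neither direction, at 0.84. Aurka, the spindle pole kinase, was at 24.4 and 27.2 CPM in G1 and 81.0 and 79.3 CPM in S (log2 ratio 1.63), Ccna2 was at 1.26, Mastl at 1.76 and Plk1 at 0.64. The 1 gene at least 2-fold lower was Mybl2, which encodes the B-MYB factor and is itself a known E2F target, at 92.6 and 97.4 CPM in G1 and 38.5 and 38.6 CPM in S (log2 ratio -1.30). Foxm1, the partner factor of the mitotic genes, was at 0.97.

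At the centromere, Incenp, the scaffold of the chromosomal passenger complex, was at 72.5 and 79.8 CPM in the G1 runs and at 314.8 and 322.9 CPM in the S runs (log2 ratio 2.07). Aurkb, the kinase of that complex, was at 2.04, whereas the subunits Birc5 and Cdca8 were at 0.35 and 0.14. Of 19 passenger and spindle checkpoint genes, 7 were at least 2-fold higher (8.63% of all genes) and 1 was lower, Mad2l1bp. Kinetochore genes were mixed: 12 of 30 were at least 2-fold higher (8.63% of all genes) and 3 at least 2-fold lower (8.59%), with a median of 0.51. The NDC80 complex, which grips microtubules, had all 4 subunits above a ratio of 1: Spc25 at 1.71, Ndc80 at 1.43, Nuf2 at 1.19 and Spc24 at 0.32. The lower genes were Cenpw (-1.91), Cenpp (-1.25) and Pmf1 (-1.12).

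Of 25 genes for spindle assembly and poles, 8 were at least 2-fold higher (8.63% of all genes) and 0 lower. They included Nusap1 (log2 ratio 1.99), Aspm (1.75) and Fam83d, which was at 0.44 CPM in G1 and 34.2 CPM in S. Of 16 genes for the central spindle and cytokinesis, 7 were at least 2-fold higher (8.63% of all genes), among them Prc1, the bundler of midzone microtubules, at 115 and 117 CPM in G1 and 314 and 315 CPM in S (log2 ratio 1.44). Chromosome structure genes had a median of 0.44 over 26 genes, with 6 at least 2-fold higher (8.63% of all genes). The condensin subunits Smc4 and Smc2 were at 1.07 and 0.98, and the cohesin subunits Smc3, Smc1a and Rad21 at 0.36, 0.30 and 0.40. Subunits and enzymes of the anaphase-promoting complex had a median of 0.08, with 2 of 18 past 2-fold, Ube2c and Fzr1 (17.2% of all genes).

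Over the 8 mitosis lists, 137 of 172 measured genes were above a ratio of 1. At least 2-fold higher were 58, against 8.63% of all genes, and 5 were at least 2-fold lower. Their median log2 ratio was 0.54, and 0.62 once the median of genes of like exon length was taken off.

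**Figure D3:**
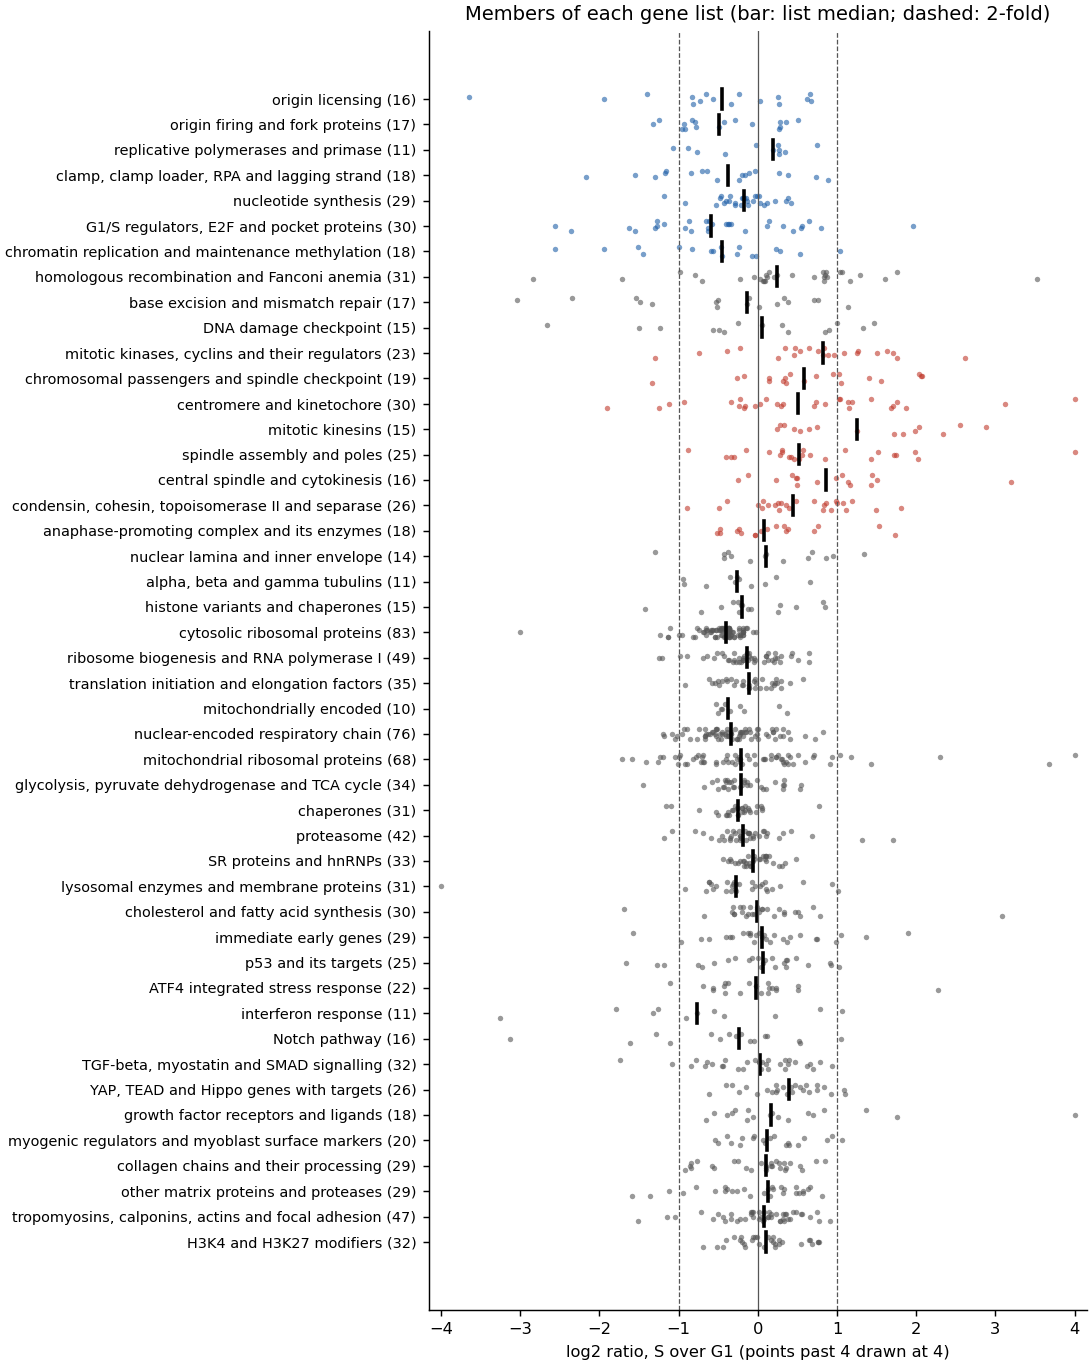
Log2 ratio of S over G1 for each measured member of the gene lists, with the number measured in brackets, the list median as a bar and 2-fold as dashed lines. The 7 replication lists (blue) have medians from -0.60 to 0.19, and the 8 mitosis lists (red) from 0.08 to 1.25.

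The largest ratios above a mean of 50 CPM also included genes outside the cell cycle lists. Absence from the lists does not mean that a gene has no part in the cell cycle. Higher in S were Prr11 (28.8 and 30.03 CPM in G1, 145.3 and 153.9 CPM in S, log2 ratio 2.35), the ubiquitin ligase gene G2e3 (2.24), Tgs1, which trimethylates the caps of small nuclear RNAs (2.18), and Vps13b, a lipid transfer protein (1.86). Lower in S were Nop53, a ribosome assembly factor (87.4 and 87.1 CPM in G1, 28.1 and 27.8 CPM in S, log2 ratio -1.64), Efemp2, a matrix protein of elastic fibres (-1.59), Tspan15 (-1.43) and the autophagy gene Gabarapl1 (-1.36). In Efemp2 the G2/M library, at 72.5 CPM, was close to the 78.7 CPM of G1, and S alone was low, at 26.2 CPM.

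The 2 directions differed in exon length as well. When genes whose mean reached 50 CPM were put in 5 equal classes by exon total, the class with the shortest exons (57 to 2606 bases) had a median log2 ratio of -0.22, with 7 genes at least 2-fold higher and 31 lower. The class with the longest (7874 to 41324 bases) had a median of 0.27, with 61 higher and 4 lower. The 92 genes at least 2-fold higher that were in neither the mitosis nor the replication lists had a median of 8377 exon bases, against 4552 for all 4225 genes. Their 77 counterparts on the lower side had a median of 2818 exon bases. The part that exon length has in single ratios was not tested.

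**Figure D4:**
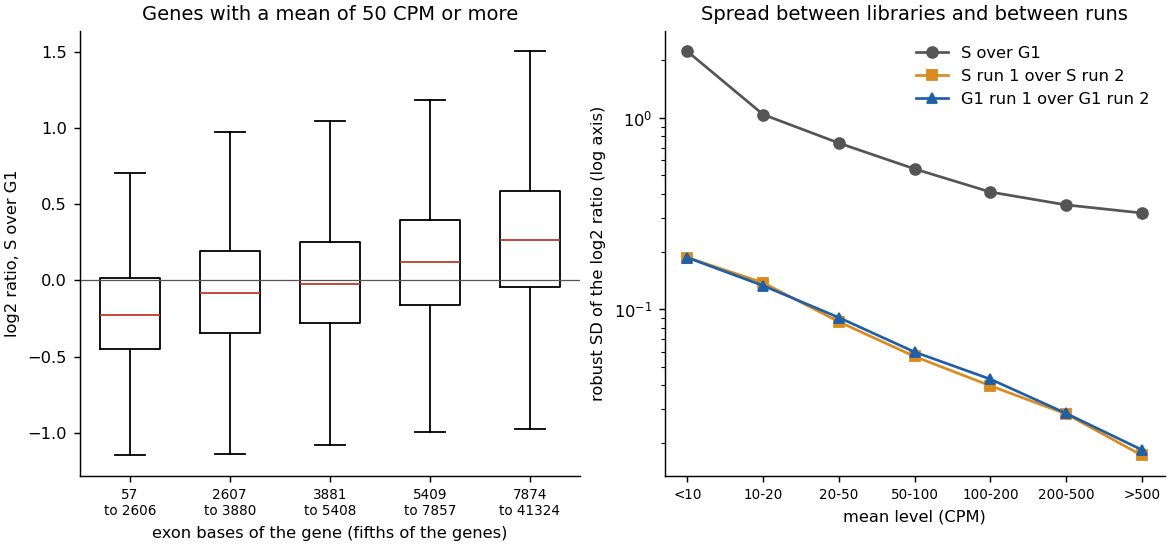
Left, the log2 ratio of S over G1 in 5 classes of exon length, for genes whose mean reached 50 CPM (box, quartiles; red line, median; whiskers, range without outliers), with medians from -0.22 to 0.27. Right, the robust SD of the log2 ratio between S and G1 and between the runs of each library, by mean level (log axis). At 500 CPM or more it is 0.32 between S and G1 and 0.02 between runs. Runs of 1 library hold no spread between cultures or sorts. The class under 10 CPM holds only genes for which 1 library reached 10 CPM.

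Cytosolic ribosomal protein genes, most with short transcripts, were lower in S without exception: 83 of 83 were below a ratio of 1, with a median of -0.40. At least 2-fold lower were 6 of them, against 8.59% of all genes. Of the 80 with a mean of 50 CPM or more, 5 were at least 2-fold lower, against 2.15% of all genes at that level. Relative to genes of like exon length the median of the 83 was -0.24. Several have near-identical copies in the genome, so single values are uncertain; Rpl37a (-1.24) was the lowest with a mean over 20 CPM, and Rpl10a (-0.02) was nearest to 1. Nuclear genes of the respiratory chain followed, with 59 of 76 below a ratio of 1 and a median of -0.34, which came to -0.13 relative to genes of like length. Chaperones were lower in 27 of 31 cases, with a median of -0.25 and with Hspb8 (-1.16) and Hsf2 (-1.10) past 2-fold (17.2% of all genes). Glycolysis genes had a median of -0.22 over 34 genes, with Gapdh at 882 CPM in G1 and 615 CPM in S (log2 ratio -0.52). Relative to genes of like exon length the medians of chaperones and glycolysis genes were -0.17 and -0.13.

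Of 11 tubulin genes, 8 were below a ratio of 1, with a median of -0.26 that was -0.04 relative to genes of like exon length. Tubb3 was at 253.1 CPM in G1 and 131.4 CPM in S (log2 ratio -0.95), and Tuba1c, at 0.66, had the highest ratio. Genes of the nuclear lamina and inner envelope had a median of 0.10, with Syne2, which links the nucleus to the cytoskeleton, at 37.2 and 37.6 CPM in G1 and 94.8 and 94.5 CPM in S (log2 ratio 1.34). Of 10 mitochondrially encoded RNAs, 8 were below a ratio of 1 and none passed 2-fold (17.2% of all genes). Their median of -0.38 was -0.16 relative to genes of like exon length, with mt-Co1 at 7264 CPM in G1 and 5463 CPM in S. Mitochondrial ribosomal protein genes had a median of -0.21 over 68 genes, which was -0.02 relative to genes of like exon length. With ratios centred on finer classes of exon length it was 0.03. Lysosomal genes had a median of -0.27 and proteasome genes one of -0.18, which were -0.11 and -0.02 relative to genes of like exon length. In the Notch pathway 4 of 16 genes were at least 2-fold lower (8.59% of all genes) and 1 higher, and 4 of the 16 had a mean of 50 CPM or more. The ligand gene Jag2 had a log2 ratio of -1.61 and the coactivator gene Maml1 one of 1.05.

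Splicing factors of the SR and hnRNP families lay close to a ratio of 1, with a median of -0.06. All 33 had a mean of 50 CPM or more, and 0 were past 2-fold, against 5.21% of all such genes. Actb and Ppia, often used as reference genes, had log2 ratios of 0.08 and 0.05, and Tbp was at 0.93. Of 14 nuclear or non-coding RNAs, 2 were at least 2-fold higher (8.63% of all genes), Malat1 and Xist, and the list median was 0.07. At least 2-fold lower were 2 (8.59% of all genes), Snhg6 (59.1 CPM in G1, 18.4 CPM in S, log2 ratio -1.68) and Mir17hg (-1.33). Malat1 was at 458 and 465 CPM in the G1 runs and at 1418 and 1413 CPM in the S runs, and Xist at 731 and 733 CPM in G1 and 1672 and 1708 CPM in S. All 4 overlap other genes in the table, and the counting names no option for strand.

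Myogenic regulators differed little, with 1 of 20 past 2-fold (17.2% of all genes), Six4 (log2 ratio 1.06). Myf5, the factor that keeps myoblasts committed, was at 66.9 and 65.1 CPM in the G1 runs and at 123.2 and 128.8 CPM in the S runs (log2 ratio 0.93, interval 0.86 to 1.01), while Des, the muscle intermediate filament, was at -0.55. Genes of the Hippo pathway and targets of YAP and TEAD were above a ratio of 1 in 20 of 26 cases, with a median of 0.39. The targets Ccn2 and Ankrd1 were at 0.93 and 0.84, and Yap1 itself was at -0.33. Past 2-fold were 2 of the 26, Stk4 (1.09) and Vgll3 (1.10), against 17.2% of all genes. The collagen list had 0 of 29 past 2-fold, against 17.2% of all genes. Among immediate early genes Junb was at 46.9 and 47.8 CPM in G1 and 16.0 and 15.9 CPM in S (log2 ratio -1.57), and Fosl1 was higher (1.36). Interferon-response genes had the lowest median among lists with at least 5 measured members, -0.76 over 11 genes. At least 2-fold lower were 4 (8.59% of all genes), H2-D1 (-1.79) and Ifitm3 (-1.33) among them, and Stat2 was higher (1.07). The 1 gene of that list with a mean of 50 CPM or more, B2m, was at 0.22. Enzymes that write or remove H3K4 and H3K27 methylation had 0 of 32 past 2-fold, against 17.2% of all genes.

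Promoter letters were then counted over all genes with a RefSeq window, 250 bases before to 50 after the start. A window was found for 6941 of the 8773 genes and for 3369 of the 4225 above the 50 CPM mean. The CHR letters were in 37 of 106 windows (34.9%) of genes at least 2-fold higher in S, in 7 of 69 (10.1%) of genes at least 2-fold lower and in 473 of 3369 (14.0%) of all. Exact binomial intervals were 25.9 to 44.8% and 4.18 to 19.8% for the first 2 shares. Unlike those of the ratios, these intervals are over genes and take them as independent, which was not tested. They hold no spread between cultures or sorts. The E2F letters were in 6 (5.66%), 9 (13.04%) and 197 (5.85%) of the same windows, and the intervals of the first 2 shares, 2.11 to 11.9% and 6.14 to 23.3%, overlapped. Over all genes with 10 CPM or more in S or G1, the E2F letters were in 7.01% of windows of genes lower in S against 5.36% of all windows, and in the bases before the start alone, for genes averaging 50 CPM or more, in 8.70% against 4.93%. The CHR share of genes higher in S was 19.9% against 13.7% of all windows in the first of these counts and 21.7% against 12.2% in the second, which was chosen after seeing the data. Over the 27025 symbols of the RefSeq table the shares were 20.2% for the CHR letters and 2.61% for the E2F letters. By list, the CHR letters were in 48.2% of 141 windows of the mitosis lists and 16.5% of 115 of the replication lists, and the E2F letters in 10.6% and 31.3%.

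**Figure D5:**
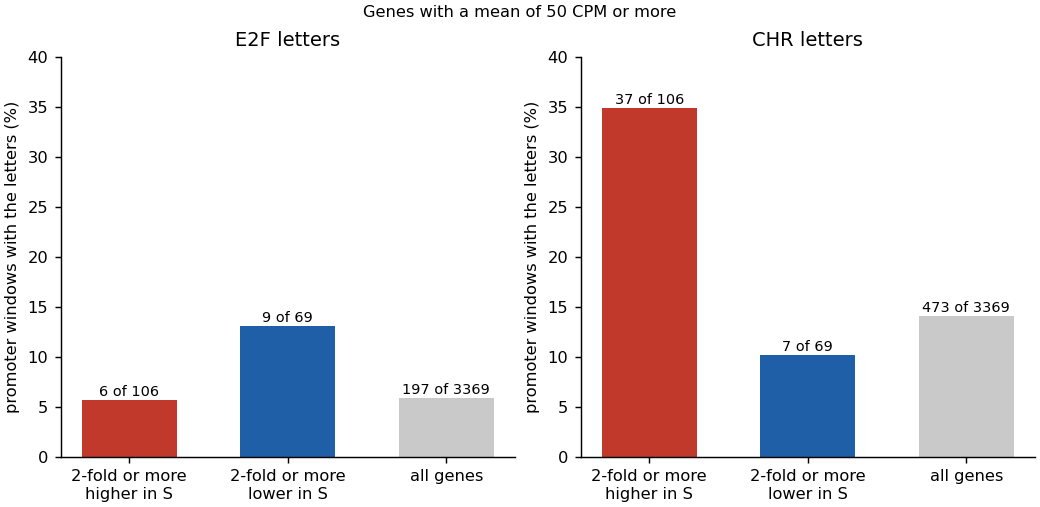
Share of RefSeq promoter windows (%) that hold the E2F letters (left) or the CHR letters (right), for genes above a mean of 50 CPM: those 2-fold or more higher in S, those 2-fold or more lower, and all; numbers above the bars are windows with the letters out of all windows. The tallest bar is 34.9%, for CHR letters in genes higher in S.

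At the lower end of the levels, 4 of the 8773 genes had 0 fragments in G1 and 7 had 0 in S. These genes met the limit of 10 CPM only through the library where they were high, so their large ratios follow from that limit. Arhgef39 had 543 fragments in S, 405 in G2/M and 0 in G1, which was at least 162-fold higher in S against a floor of 3 fragments. Actn3, an actin-binding protein of fast muscle fibres, had 0 fragments in S, 350 in G1 and 367 in G2/M, at least 130.4-fold lower in S on the same floor. No gene had 10 CPM in 1 run and 0 in the other run of the same library.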

How the data were processed

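RNA was measured by RNA-seq in sorted C2C12 fractions, with paired reads of 101 cycles per the labels' protocols. The deposited values are fragment counts per gene, made with featureCounts 1.5.0-p3 over Ensembl GRCm38 exons; this is stated per the file headers, which name no option for strand. HISAT2 2.1.0 and SAMtools 1.6 are named in the submitters' processing notes. For read trimming, no source used here gives a tool. Exon length is also in the deposited table for each gene.

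Columns were matched to samples by their descriptions, and symbols were found for 45143 of 46078 genes (98%). The planned condition for treating columns as replicates was not met, so the 2 columns of a phase were summed. Single columns held 16109055 to 18041390 fragments. Counts of the 3 summed libraries were scaled with TMM factors (G1 0.99, S 1.00, G2/M 1.01) from edgeR 4.0.16 in R 4.3.3, and counts under 3 were set to 3 in ratios. A count of 0 allows up to 0.0837 CPM in S and 0.0936 CPM in G1. Intervals of ratios, and floors, cover counting error only, since PCR copies are not independent molecules. The ratios and intervals were tested on simulated data.

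Genes with 10 CPM or more in S or G1 were measured, and 2-fold was the call. The 51 gene lists and the genes compared were chosen with earlier results of these data known. Genes were named by this rule: per direction, the 15 genes with a name of their own and the largest ratios above a mean of 50 CPM; up to 4 members per list and side past 2-fold above a mean of 20 CPM, or the 2 largest; fixed genes; and the 10 highest levels. Other members of a group (whole complexes, list extremes, E2f1, Cdk2 and the like) were chosen after their values were seen. Promoter windows and sequences are from RefSeq (GRCm38.p6). Alternatives were DESeq2 1.42.0 size factors, library size only, centring, single runs, other minimum levels and a prior count.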

Additional observations from a re-analysis of the deposited data

How the results depend on the processing

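The counts of genes at least 2-fold higher and lower in S (757 and 754) stayed within 1.5 times under DESeq2 size factors, library size only, centring on the median or on exon length, a prior count of 2, the nearer bound of the counting interval, and with either run of each library left out (756 to 757 higher, 752 to 766 lower). With no minimum beyond 3 fragments they were 2407 and 2004, and at a mean of at least 50 CPM 129 and 91. The share of CHR letters among genes higher in S was 34.9%, but 19.9% over all genes with 10 CPM or more and 21.7% in the bases before the start alone, an alternative chosen after seeing the data; over all genes it was then 13.7% and 12.2%. Of 117 named genes past 2-fold, 97 stayed so after centring on exon length and 113 to 117 under each other setting, with 0 changes of sign. The medians of 7 lists changed sign in at least 1 setting: checkpoint, mitochondrial ribosome, cholesterol and fatty acid synthesis, ATF4 response, TGF-beta, matrix proteins and reference genes. Centring on exon length also shifted medians without a change of sign. That of ribosomal proteins went from -0.40 to -0.23, and that of mitotic kinesins from 1.25 to 1.36. No paired analysis was possible because each phase has 1 library and the results come from no test. With 1 library per phase, the spread between cultures and sorts was not measured, and genes with a mean under 20 CPM have the least certain ratios.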
